A study of Mus musculus with 2 samples.

Results

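Mir375, the Mir7 genes and the Mir183 cluster are miRNA genes used as markers of endocrine and neuroendocrine cells, the class that includes the chromaffin cells of the adrenal medulla. They were chosen by gene symbol alone, as Mir375, Mir182, Mir183, Mir96 and every symbol made of Mir7 with an optional letter a or b and an optional copy number. The choice gave 7 of 2202 annotated miRNA genes, namely Mir375, Mir183, Mir96, Mir182, Mir7-1, Mir7-2 and Mir7b. Their counts were taken from small RNA sequencing of adrenal glands from female B6CASTF1/J mice, the F1 hybrid of C57BL/6J and CAST/EiJ parents, at 14 days of age. The animals formed 1 group with no treatment named in the labels, and it was sequenced as 2 libraries labelled biological replicates 1 and 2. By its label replicate 1 came from 3 females, while the label of replicate 2 names 1 numbered female, and both give the same donor. No conditions can therefore be compared, and differences between the replicates measure only how far these libraries lay apart. A small RNA library holds no messenger RNA markers of chromaffin or cortical cells, so the labelled tissue could be checked only through miRNA genes.

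A miRNA gene is transcribed as a longer RNA, from which a hairpin is cut and then trimmed to a mature RNA from its 5p or 3p arm. The mature RNA finds messenger RNAs mainly through its seed, bases 2 to 8 from its 5′ end, and lowers their translation and stability. miR-375 is best known from pancreatic islets, where it restrains insulin release and maintains the endocrine cell mass. miR-7 is abundant in islets, pituitary and hypothalamus and dampens growth factor and secretory signalling. miR-183, miR-96 and miR-182 come from 1 genomic cluster, are typical of sensory cells of the eye, ear and nerve ganglia, and are also found in endocrine tissue.

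All 7 genes were matched by symbol in the RefSeq miRNA sequences of build GRCm38.p6. The 5p arms of the Mir183 cluster are shown first because their seeds are near-identical, with the seed in capitals:
miR-183-5p: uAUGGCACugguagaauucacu
miR-96-5p: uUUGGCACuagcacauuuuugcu
miR-182-5p: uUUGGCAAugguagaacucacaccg

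Positions were counted from 1 at the 5′ end, with the base of the first-named RNA before the position and that of the second after it. miR-96-5p and miR-183-5p differed by U2A within the seed, and miR-96-5p and miR-182-5p by C8A. miR-182-5p and miR-183-5p differed by both U2A and A8C in the seed, but outside it only by C17U and A22U over the 22 bases compared. Thus miR-96-5p was 1 seed base from each of the others, while miR-182-5p and miR-183-5p had the longer shared stretch, 18 of 22 bases. In the RefSeq set, the miR-96-5p seed was also that of miR-1271-5p, whose gene, annotated as Gm24195, had 0 counts in both libraries. The seeds of miR-183-5p and miR-182-5p were found in no other name.

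The mature RNAs of the Mir7 genes are shown because they set which reads can be assigned to 1 gene, again with the seed in capitals:
miR-7a-5p: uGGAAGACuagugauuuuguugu
miR-7b-5p: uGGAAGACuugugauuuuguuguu
miR-7a-1-3p: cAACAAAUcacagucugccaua
miR-7a-2-3p: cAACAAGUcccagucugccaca
miR-7b-3p: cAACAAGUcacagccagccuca

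miR-7a-5p and miR-7b-5p had the same seed and differed by A10U alone over 23 bases. The miR-7a-5p sequence lay in the hairpins of both Mir7-1 and Mir7-2, whereas every other mature sequence listed here for the 7 genes lay in 1 hairpin only. Of 1679 mature RNAs in the RefSeq set, 4.94% lay in more than 1 annotated hairpin. The 3p arms of Mir7-1 and Mir7-2 differed by A7G, A10C and U21C. A complete miR-7a-5p read therefore has a pair of equal origins, while a miR-7b-5p read or a 3p read has a single one among annotated hairpins.

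The hairpin of Mir375 is shown because this gene held most of the counts, with the bases of miR-375-5p in capitals:
Mir375 hairpin: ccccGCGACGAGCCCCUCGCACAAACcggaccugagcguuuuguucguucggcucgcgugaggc

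Mir375 had the highest GC content of the 7 hairpins, 67.2%, above that of 94.3% of all annotated miRNA hairpins, whose median was 50.8%. The other 6 hairpins lay between 41.7% for Mir7-1 and 50.9% for Mir96. Counts were deposited per hairpin gene, so the arms cannot be told apart in any value that follows. For Mir375 the RefSeq set listed miR-375-5p alone, so any mature RNA of the other arm is left unmarked in the hairpin above. The capitals therefore do not show which arm gave the counts of Mir375.

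All positions refer to mm10 with the GENCODE M21 annotation, whose hairpin sequences were identical to the RefSeq ones for all 7 genes. Mir375 (ENSMUSG00000065616.3) is intergenic at chr1:74900658-74900721 on the minus strand, between Cryba2, 7514 bases away, and Cfap65, 1349 bases away. The Mir183 cluster is also intergenic and on the minus strand, spanning 3820 bases at chr6:30165918-30169737 between Nrf1 and the long noncoding RNA gene Rncr4. In the direction of transcription it begins with Mir183 (ENSMUSG00000065619.2) at chr6:30169668-30169737, followed after 116 bases by Mir96 (ENSMUSG00000065586.1) at chr6:30169446-30169551. A further 3453 bases separate Mir96 from Mir182 (ENSMUSG00000076361.1) at chr6:30165918-30165992. The Mir7 genes lie on 3 chromosomes. Mir7-1 (ENSMUSG00000065434.1) is at chr13:58392779-58392886 in an intron of Hnrnpk, on the same strand as that RNA-binding protein gene. Mir7-2 (ENSMUSG00000065609.1) is intergenic at chr7:78888277-78888373 on the plus strand, 7480 bases before Aen. Mir7b (ENSMUSG00000065491.1) is at chr17:56242988-56243098 on the plus strand, 182 bases after the long noncoding RNA gene AC026385.1.

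Replicate 1 held 3797107 counts on miRNA genes and replicate 2 held 5034257. Reads mapping to more than 1 place made up 28.0% and 25.0% of the libraries and entered no gene's count. Values of Mir7-1 and Mir7-2, which share an arm, therefore leave out complete reads of that arm. How many such reads there were is not known, and the order of these genes is uncertain. Libraries differed most at Mir122, the main hepatocyte miRNA, with 0.290% of counts in replicate 1 and 21.5% in replicate 2, which lowers every other share in replicate 2. Shares of Mir375, the Mir7 genes and the Mir183 cluster are therefore also given with Mir122 left out of the totals, and differences between libraries with TMM scaling, which sets the bulk of genes level. No molecular identifiers were recorded, so intervals cover counting error only. In bulk tissue, fewer cells of a type and less of a miRNA per cell cannot be told apart.

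All 7 genes passed the detection limit of 10 counts in both libraries. Their summed share of miRNA counts was 3.99% in replicate 1, with a Wilson 95% interval of 3.97 to 4.01, and 2.13% in replicate 2, with one of 2.12 to 2.14. Mir375 supplied 84.7% of these in replicate 1 and 82.6% in replicate 2. The Mir7 genes supplied 13.0% and 12.0%, and the Mir183 cluster 2.25% and 5.40%. The sum thus reflected Mir375 almost alone, and the share of the Mir183 cluster within it was higher in replicate 2.

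Mir375 had 128331 counts in replicate 1 and 88683 in replicate 2. These stood for 33797 and 17616 CPM (a gene's counts scaled to an equal total of miRNA counts in each library), a mean of 25706 ± 11442 (SD, n = 2). It ranked 9 among all miRNA genes by mean CPM, 9 in replicate 1 and 14 in replicate 2. Its share was 3.38% (Wilson 95% interval 3.36 to 3.40) and 1.76% (1.75 to 1.77), and 3.39% and 2.24% with Mir122 left out. Replicate 1 was the higher library on either denominator.

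Among the Mir7 genes, Mir7b was far the most abundant, with 18304 and 11855 counts, or 4821 and 2355 CPM (mean 3588 ± 1743, SD, n = 2). Mir7-1, the copy within Hnrnpk, had 1274 and 849 counts, or 336 and 169 CPM. Mir7-2 had 170 and 150 counts, or 44.8 and 29.8 CPM. All 3 genes had the higher CPM in replicate 1. Together they held 0.520% of miRNA counts in replicate 1 and 0.255% in replicate 2, or 0.522% and 0.325% with Mir122 left out. Mir7b held 92.7% of Mir7 counts in replicate 1 (exact 95% interval 92.3 to 93.0) and 92.2% in replicate 2 (91.8 to 92.7), intervals that overlap. Mir7-1 held 6.45% (6.11 to 6.80) and 6.60% (6.18 to 7.05), and Mir7-2 held 0.861% (0.737 to 1.00) and 1.17% (0.989 to 1.37). Mir7b is also the only one of the 3 whose mature arms are both found in a single annotated hairpin, and the part of multimapping reads in this order was not tested. The summed share leaves out complete reads of the arm that Mir7-1 and Mir7-2 share. It may thus be too low, and the part held by Mir7b too high.

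Within the Mir183 cluster, Mir182 led with 3024 and 5047 counts, or 796 and 1003 CPM (mean 899 ± 146, SD, n = 2). Mir183 had 323 and 703 counts, or 85.1 and 140 CPM. Mir96, which lies between them, had 58 and 41 counts, or 15.3 and 8.14 CPM. Mir182 and Mir183 were thus higher in replicate 2 and Mir96 in replicate 1. The cluster held 0.0897% of miRNA counts in replicate 1 and 0.115% in replicate 2, or 0.0899% and 0.146% with Mir122 left out. Mir182 held 88.8% of cluster counts in replicate 1 (exact 95% interval 87.7 to 89.9) and 87.2% in replicate 2 (86.3 to 88.0). Mir183 held 9.49% (8.52 to 10.5) and 12.1% (11.3 to 13.0), and Mir96 held 1.70% (1.30 to 2.20) and 0.708% (0.509 to 0.959). The level was therefore lowest at the middle gene and highest at the last gene of the cluster in both libraries.

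**Figure D1:**
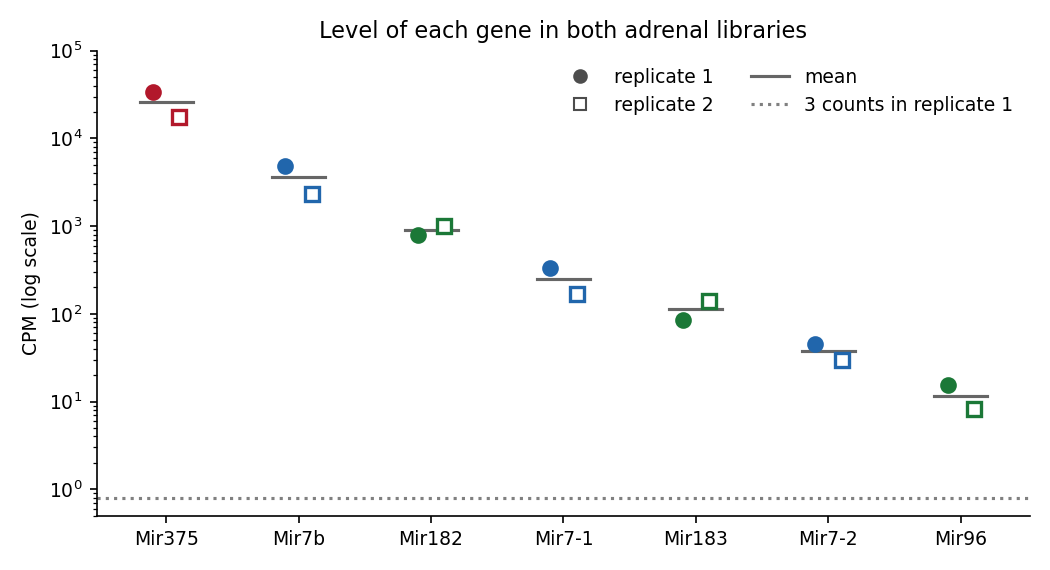
Level of each of the 7 genes in CPM on a log scale, with a filled circle for replicate 1, an open square for replicate 2 and a bar for their mean; the dotted line is the level of 3 counts in replicate 1. Levels run from 33797 CPM for Mir375 down to 8.14 CPM for Mir96, and only Mir182 and Mir183 have the square above the circle.

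**Figure D2:**
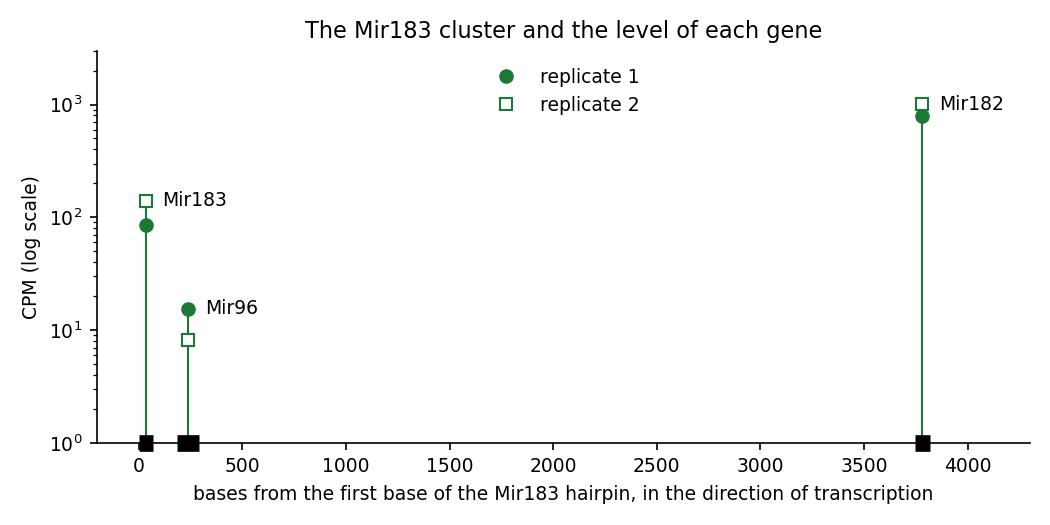
The Mir183 cluster drawn to scale, with black boxes for the hairpins along the axis of distance in bases from the start of Mir183, and CPM on a log scale for replicate 1 (filled circle) and replicate 2 (open square). Mir96 is lower than both its neighbours in both libraries, and Mir182, 3453 bases further on, is the highest.

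The genes fell in the order Mir375, Mir7b, Mir182, Mir7-1, Mir183, Mir7-2 and Mir96 in both libraries. A small RNA read spans the whole mature RNA, so counts were compared without division by length. Per base of hairpin the order was the same in replicate 1, and in replicate 2 Mir183 came before Mir7-1. The CPM ranges of the libraries did not overlap for any neighbouring pair. Mir7-1 (252 ± 118 CPM) and Mir183 (112 ± 38.6 CPM) were the 1 neighbouring pair whose means lay within the sum of their SDs (n = 2 for each). Mean levels ran from 25706 CPM for Mir375 to 11.7 ± 5.04 CPM for Mir96 (SD, n = 2). Mir96 was still above 3 counts, the most that a gene with none could hide, which equalled 0.790 CPM in replicate 1 and 0.596 CPM in replicate 2.

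Reads on the opposite strand were nearly absent at these genes. Mir182 and Mir183 had 1 opposite-strand count each in replicate 2, and no other such count was found at the 7 genes in either library. Strand assignment thus did not bear on their counts, which were equal with and without regard to strand apart from those 2 reads. No miRNA gene is annotated opposite any of the 7.

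Ratios between genes within 1 library do not depend on how the libraries are scaled. Those with Mir7-1 or Mir7-2 leave out complete reads of the arm that these genes share. Mir375 stood at 7.01 times Mir7b in replicate 1 (exact 95% counting interval 6.90 to 7.12) and at 7.48 times in replicate 2 (7.34 to 7.63). The intervals do not overlap, but the ratios differed by only 1.07-fold. Mir7b stood at 14.4 times Mir7-1 (13.6 to 15.2) and 14.0 times (13.0 to 15.0), which did not differ beyond counting error. Mir7-2 shifted more, with Mir7b at 108 times its count in replicate 1 (92.6 to 126) and 79.0 times in replicate 2 (67.3 to 93.5), a 1.36-fold difference with overlapping intervals. Mir7-1 stood at 7.49 times Mir7-2 (6.38 to 8.85) and 5.66 times (4.75 to 6.78), a 1.32-fold difference, again with overlapping intervals. Of the 9 ratios computed, those of Mir375 to Mir7b and of Mir7b to Mir7-1, genes on different chromosomes, differed least between the libraries.

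Proportions to Mir182 shifted further. Mir375 stood at 42.4 times Mir182 in replicate 1 (40.9 to 44.0) and 17.6 times in replicate 2 (17.1 to 18.1), a 2.42-fold difference. Mir7b stood at 6.05 times Mir182 (5.82 to 6.29) and 2.35 times (2.27 to 2.43). Inside the cluster, Mir182 stood at 9.36 times Mir183 (8.34 to 10.5) and 7.18 times (6.63 to 7.78), a 1.30-fold difference. Ratios to Mir96 differed more. Mir183 stood at 5.57 times Mir96 in replicate 1 (4.20 to 7.50) and 17.1 times in replicate 2 (12.5 to 24.1), a 3.08-fold difference from few Mir96 counts.

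**Figure D3:**
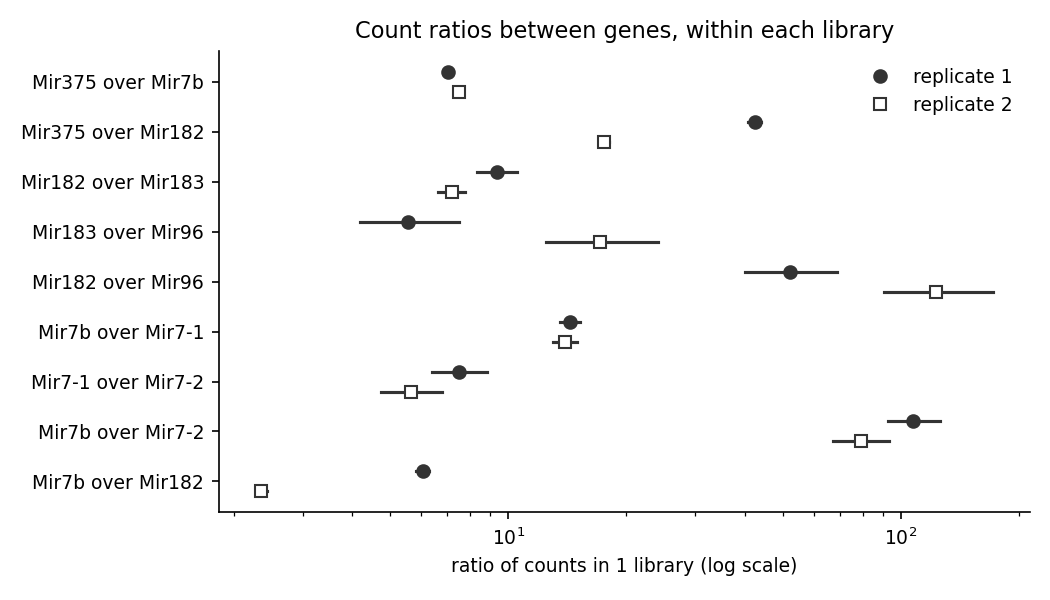
Ratio of the counts of 2 genes within 1 library on a log scale, for 9 pairs, with filled circles for replicate 1, open squares for replicate 2 and lines for exact 95% counting intervals. Circles and squares lie close for Mir375 over Mir7b and Mir7b over Mir7-1, and apart for pairs of Mir182 with Mir375 or Mir7b and for pairs with Mir96.

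Between the libraries, a gene was called different when its 2 counts gave a Benjamini-Hochberg adjusted p under 0.05 (exact binomial test, two-sided) and differed at least 2-fold after scaling. This test compares 1 pool of reads with another and says nothing of conditions or animals. Over all 358 detected genes 17.9% were called, 9.22% higher and 8.66% lower in replicate 2. Of the 7 genes 1 was called, Mir183, higher in replicate 2. With no fold minimum 5 of the 7 passed, against 67.9% of all detected genes. Both shares are near their backgrounds and say nothing particular about these genes. With library totals in place of TMM the split over all genes moved from 33 higher and 31 lower to 18 higher and 78 lower, and the median log2 ratio from -0.06 to -0.48. The call then passed from Mir183, at 0.71, to Mir7b, at -1.03.

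Relative to TMM scaling, Mir183 was 2.21-fold higher in replicate 2, a log2 ratio of 1.14 (95% counting interval 0.95 to 1.34; adjusted p = 7.51e-34, exact binomial test). The interval includes the 2-fold minimum on which the call rests. Mir182 had a log2 ratio of 0.76 (0.70 to 0.83), below the minimum for a call. Mir96 had -0.47 (-1.09 to 0.12) and did not pass the test at an adjusted p of 0.149 in the exact binomial test. The 3 genes of 1 cluster thus did not have log2 ratios of 1 sign, and the interval of Mir96 does not meet those of the other two.

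The log2 ratio of Mir375 was -0.51 (95% counting interval -0.52 to -0.50), that of Mir7b -0.60 (-0.64 to -0.57) and that of Mir7-1 -0.56 (-0.69 to -0.44). All 3 were past counting error but under the 2-fold minimum. Mir7-2 had -0.16 (-0.48 to 0.17), with an adjusted p of 0.418 in the exact binomial test. Signs were the same under library totals for all 7 genes. The spread between the replicates was taken into account with edgeR's exact test, at a biological coefficient of variation of 0.444 estimated from the same libraries. By that test 0 of the 7 genes passed. Its estimate of spread comes from the very difference tested, so only genes far outside the typical difference could pass. None had an unadjusted p under 0.05 in that exact test either, the lowest being 0.225 for Mir183, and 6 of all 358 genes (1.68%) had an adjusted p under 0.05.

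Those markers of other tissues that were detected differed between the libraries in the direction of Mir183 and Mir182. The log2 ratio of Mir122 was 6.64 and that of Mir206, of skeletal muscle, 6.22. Mir192 and Mir194-2, listed here under kidney and gut epithelium, had log2 ratios of 4.28 and 3.18. Their counts do not show which tissue the reads came from, and a source shared with Mir122 was not tested. Mir194-2 is a numbered copy, and any read mapping to another copy as well would not be counted on it. The summed level of the 4 genes listed under kidney and gut was 109 CPM in replicate 1 and 1155 CPM in replicate 2, with 2 of the 4 detected. The 6 skeletal muscle genes summed to 27.9 and 1554 CPM. Mir206, with 106 and 7815 counts, was the 1 of 6 detected and supplied nearly all of this sum. Mir133b, which is not a numbered copy, had 0 and 3 counts, and Mir1a-2 had 0 and 4. The rise in this list thus rests on Mir206 alone. Mir1a-1, Mir133a-1 and Mir133a-2 were at 0 in both libraries. Those 3 are numbered copies, and a count of 0 does not show that their miRNA was absent. The part of such tissue in the levels of the Mir183 cluster was not tested.

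For the pancreas, a tissue known for Mir375, genes of its acinar cells were counted, Mir216a, Mir216b and Mir217. None of the 3 reached the detection limit, and they summed to 9 and 11 counts, or 2.37 and 2.19 CPM. Mir217 had 9 counts in each library, Mir216a had 0 and 2, and Mir216b had 0 in both. These genes mark acinar cells and not islets, and the part of pancreas in the level of Mir375 was not tested.

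Other miRNA genes studied in islet, neuroendocrine and neuronal cells had much lower counts than Mir375 and Mir7b. Of 13 such genes 7 were detected, and the 13 summed to 995 CPM in replicate 1 and 576 CPM in replicate 2. Mir132, a gene induced by neuronal activity and cyclic AMP signalling, made up most of this with 2997 and 2165 counts, or 789 and 430 CPM. In both libraries Mir132 lay below Mir182 but above Mir7-1, Mir183, Mir7-2 and Mir96, so the 7 genes as a set did not stand above this list. Mir212, encoded beside it, had 156 and 92 counts. Mir184 and Mir204, both known from islets, had 221 and 217 counts and 133 and 153 counts. Mir129-2 had 159 and 211 counts and Mir129-1 45 and 38. These are numbered copies, and any read mapping to both would enter neither count. Mir153, a gene of neurons and islets, had 66 and 21 counts and was the 1 of the 7 called, lower in replicate 2 at a log2 ratio of -1.61 (95% counting interval -2.41 to -0.90). Over all detected genes 8.66% were called lower, and in edgeR's exact test Mir153 did not pass (unadjusted p = 0.117, adjusted p = 1). The median log2 ratio of the 7 detected genes was -0.22, beside -0.06 over all detected genes and -0.47 over the 7 marker genes.

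Few or no reads were counted on the Mir9 and Mir124a copies, genes typical of neurons. Mir9-1 and Mir9-3 had 0 and 1 counts each, and no read was counted in either library on Mir124a-3, Mir124a-2, Mir124a-1 or Mir9-2. They are numbered copies with shared mature RNAs, so the same limit applies as for Mir7-1 and Mir7-2, and their counts do not show how much of these miRNAs the gland held.

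Of 5 epithelial genes also studied in endocrine cells, all were detected, and they summed to 113 CPM in replicate 1 and 350 CPM in replicate 2. Mir200b had 64 and 946 counts, Mir429 66 and 572, and Mir200a 28 and 91, and these 3 neighbours were called higher in replicate 2. Mir141 had 32 and 11 counts and was called lower. These 4 calls among 5 genes stand beside the 17.9% called over all detected genes. In edgeR's exact test Mir200b alone of the 5 passed, at an adjusted p of 0.012, while Mir429 had 0.0919 and Mir200a and Mir141 each had 1. Mir200c, the neighbour of Mir141, was not called at 239 and 142 counts, a log2 ratio of -0.73. The median log2 ratio of the 5 was 1.71. The part of epithelial cells in the levels of Mir375, the Mir7 genes or the Mir183 cluster was not tested.

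**Figure D4:**
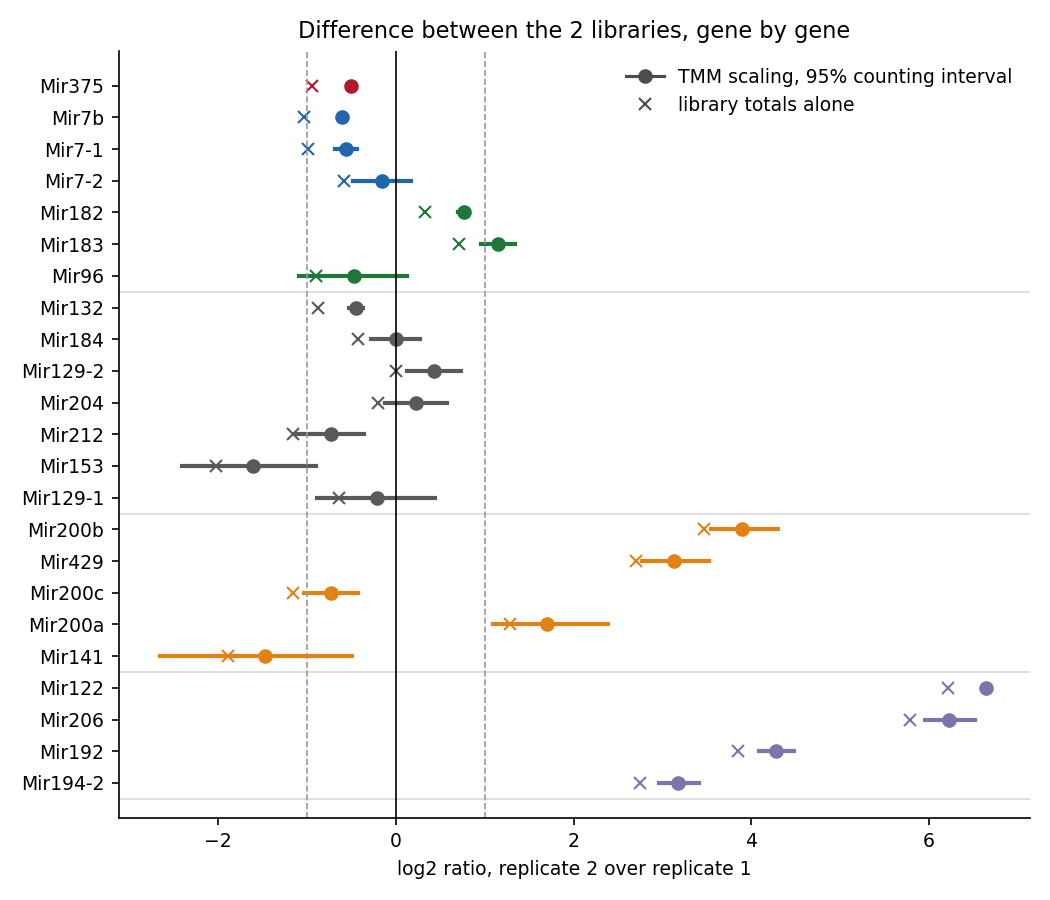
Log2 ratio of replicate 2 over replicate 1 with TMM scaling (circles, lines for 95% counting intervals) and with library totals (crosses), for the 7 genes (red, blue and green), the detected islet and neuronal genes (grey), epithelial genes (orange) and markers of other tissues (purple); dashed lines mark the 2-fold limits. Mir375 and the Mir7 genes lie left of 0, Mir182 and Mir183 right of it, and the other-tissue markers at 3.18 to 6.64, with Mir200b and Mir429 at 3.90 and 3.13.

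The genes nearest in level to each of the 7 were found by Euclidean distance over the log2 CPM of the 2 libraries, which with only 2 points measures likeness of level and little else. Mir375 was nearest to Mir10a, of the Hoxb region, at a distance of 0.14, with 36629 and 18641 CPM, then to Mir322 at 0.74 and Mir26b at 0.75. Mir7b was nearest to Mir17 at 0.07, then Mir93 and Mir27b. Mir182 was nearest to Mir409, Mir615 and Mir337, and Mir183 to Mir1193, Mir574 and Mir700. Mir7-1 was nearest to Mir300, Mir144 and Mir338, Mir7-2 to Mir486, Mir377 and Mir1983, and Mir96 to Gm23935, Mir33 and Mir6240. No gene was among the 3 nearest of more than 1 of the 7.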

How the data were processed

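Small RNA was sequenced from 1 group of adrenal libraries, labelled biological replicates 1 and 2. For every miRNA gene the authors deposited unnormalized whole-number counts, on build mm10 with annotation GENCODE M21, per the text files beside the tables. The sources used here do not give the aligner, counter or trimming. Column 3 of the count columns was used, read as the gene's own strand from its values, and library sizes left out the 4 summary lines. All 2202 identifiers matched GENCODE M21.

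CPM, shares with Wilson or exact Clopper-Pearson 95% intervals, and log2 ratios (TMM factors 1.16 and 0.862 from detected genes, prior count 0.5) were computed. Detected genes (10 counts in each library) had an exact binomial test, adjusted over all of them. The calling steps were run on simulated counts that held counting error and no other spread between libraries. That run checks the calculation, and not whether calls in these data go beyond such spread. Binomial p-values measure counting error alone, and those of edgeR use the spread between these libraries. Both labels name the same donor, so technical spread and spread between animals cannot be told apart. The members, gene lists and tests were chosen with earlier results of these data known. The rule for named genes took all 7 members, the 3 detected genes nearest in level to each, the islet, neuronal and epithelial lists, and markers of other tissues; Gm24195 was added for its seed. Alternatives were the unstranded column, other count minimums, scalings, totals and prior, each replicate left out, and edgeR's exact test. Versions were edgeR 4.0.16 and DESeq2 1.42.0 (size factors) under R 4.3.3, and scipy 1.17.1 and pandas 2.3.3 under Python 3.11.15.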

Additional observations from a re-analysis of the deposited data

How the results depend on the processing

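All 7 genes were detected with each replicate left out, in the unstranded counts and at a minimum of 1 count, and 6 at a minimum of 100, which Mir96 missed. Mir183 was the 1 member called under every alternative except library totals, where it was Mir7b, and edgeR's exact test, where 0 were called. Over all genes 37 were called at a minimum of 100 counts, where fewer genes were tested, and 6 by edgeR's exact test. As a percentage of all reads in place of miRNA counts, Mir375 held 0.995%, the Mir183 cluster 0.0418% and the Mir7 genes 0.150%, since the denominator then includes unassigned reads. In the unstranded counts the cluster held 0.135%, as the total was smaller. With 1 library left out, the share of Mir375 was 1.76% or 3.38%, and its mean with Mir122 removed from the denominator was 2.82% ± 0.811 (SD, n = 2). All 7 log2 ratios kept their sign under every scaling. Among other named genes, Mir184 changed sign to 0.026 in the unstranded counts and 0.052 with DESeq2 size factors, and Mir204 to -0.20 with library totals. Mir129-2 stood at -2.30 in the unstranded counts, where it had 2 and 0 counts and was not detected. Mir96, with 58 and 41 counts, is the member whose values depth limits most.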
